A study of Homo sapiens with 16 samples.

Results

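Polycomb repressive complex 2 (PRC2) is the chromatin enzyme that methylates histone H3 at lysine 27 (the H3K27 mark). Its transcripts were followed in HCT116, a human cell line grown from a colon cancer. The 10 genes were chosen by name, as the catalytic, core and accessory subunits of the complex: EZH2, EZH1, SUZ12, EED, RBBP4, RBBP7, JARID2, AEBP2, MTF2 and PHF19. They are 10 of 63653 genes listed by the deposited files. All 10 were among the 12846 genes that passed the filter on low values, and none was below 3.224 FPKM in any library, so none passed through a single high group.

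In PRC2, EZH2 or its paralog EZH1 carries the methyltransferase domain, and is active only when bound to SUZ12, which holds the complex together, and to EED, which binds the finished mark and stimulates the enzyme. RBBP4 and RBBP7 are histone-binding partners that also serve other chromatin complexes. Accessory subunits steer the enzyme to its sites: JARID2 and AEBP2 belong to one form of the complex, and the Polycomb-like proteins MTF2 and PHF19 to another. The methylated histone is a hallmark of silenced developmental genes, and EZH2 is highly expressed in many dividing and cancer cells.

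The study targeted G9a (gene EHMT2), an enzyme that methylates histone H3 at lysine 9 (the H3K9 mark). Cells of the inhibitor group received 0.5 µM of the G9a inhibitor BIX 01294 for 72 h, and the inhibitor controls stand beside them. Cells of the siRNA group were transfected with 10 nM of a small interfering RNA against G9a and kept for 72 h, and the siRNA controls stand beside them. The sources used here do not say what either control received. Each of the 4 groups held 2 libraries of total RNA, and each library had 2 sequencing runs, which were averaged, so that n = 2 per group. All groups share the same cell line.

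Values are FPKM (fragments per kilobase of transcript, adjusted for the number of mapped fragments), scaled between libraries. They are levels per length, so genes can be set side by side. Relative to the deepest library's first run, the depth of the runs lay between 0.275 and 1.015, with siRNA control replicate 2 and inhibitor control replicate 2 the shallowest. EHMT2 had 4.679 and 4.538 FPKM in the siRNA libraries, against 15.93 and 17.77 FPKM in the siRNA controls, a log2 difference of -1.67 ± 0.09 (SE, limma adjusted p = 0.000268). With the inhibitor it had 19.67 and 18.94 FPKM, against 24.72 and 20.99 FPKM in the inhibitor controls (log2 -0.23 ± 0.09, limma adjusted p = 0.0827). The inhibitor controls stood apart: over all genes tested, r between their log2 values was 0.993, whereas r between an inhibitor control and any other library was 0.957 to 0.974, and r among the remaining 6 libraries was 0.985 to 0.995. Every comparison with the inhibitor controls rests on those libraries, and the inhibitor libraries are therefore also set beside the siRNA controls. Of 6 epithelial markers 5 reached 1 FPKM in at least 1 library, with EPCAM, KRT8 and KRT18 high, CDX2 at 2.67 to 5.02 FPKM, CDH1, the adhesion protein of epithelia, at 0.623 to 2.02 FPKM, and VIL1, which marks the gut brush border, at 0.15 to 0.409 FPKM. Of 8 fibroblast markers 2 (COL1A1 and PDGFRB) reached 1 FPKM and LUM and FAP were listed at 0. They summed to 1.98 to 2.42 FPKM in inhibitor, 1.75 to 2.81 in siRNA, 2.0 to 2.12 in siRNA control and 2.66 to 3.76 in inhibitor control libraries. Of 4 blood cell markers none reached 1 FPKM, HBB was listed at 0, and they summed to 0.314 to 0.715 FPKM per library.

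Promoter sequence is shown for the catalytic gene EZH2, the scaffold gene SUZ12 and the accessory gene AEBP2, the members called lower with the inhibitor whose window holds a motif match. Each window runs from 250 bases before to 50 bases after a RefSeq start on the gene's strand, in build GRCh38.p14. Capitals mark a match to an E2F-type motif, searched on both strands as TTTCCCGC, TTTCGCGC, TTTGCCGC or TTTGGCGC, and a window with overlapping matches counted once. The windows are chr7:148884242-148884541 (minus strand) for EZH2, chr17:31936757-31937056 (plus strand) for SUZ12 and chr12:19440349-19440648 (plus strand) for AEBP2.
EZH2: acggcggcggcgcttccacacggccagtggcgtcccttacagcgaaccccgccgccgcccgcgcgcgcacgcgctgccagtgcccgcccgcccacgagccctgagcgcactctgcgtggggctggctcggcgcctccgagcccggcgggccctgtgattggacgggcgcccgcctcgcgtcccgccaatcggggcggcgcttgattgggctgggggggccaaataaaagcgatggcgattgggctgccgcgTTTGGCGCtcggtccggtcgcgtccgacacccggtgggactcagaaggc
SUZ12: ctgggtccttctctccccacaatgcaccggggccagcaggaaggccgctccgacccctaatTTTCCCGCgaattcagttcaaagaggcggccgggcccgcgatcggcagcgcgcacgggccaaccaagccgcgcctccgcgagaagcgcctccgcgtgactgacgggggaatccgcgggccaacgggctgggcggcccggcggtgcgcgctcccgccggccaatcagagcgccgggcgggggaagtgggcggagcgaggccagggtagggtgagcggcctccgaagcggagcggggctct
AEBP2: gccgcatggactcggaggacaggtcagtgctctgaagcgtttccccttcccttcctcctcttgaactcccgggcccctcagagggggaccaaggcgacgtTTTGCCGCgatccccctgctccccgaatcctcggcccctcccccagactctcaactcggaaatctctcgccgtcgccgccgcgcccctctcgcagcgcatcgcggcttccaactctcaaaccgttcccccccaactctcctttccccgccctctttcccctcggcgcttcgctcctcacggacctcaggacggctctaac
E2F factors switch on genes of the dividing cell, and EZH2 is described as one of their targets. All 10 genes were found in the RefSeq table, with 15 windows. Of these, 6 held a match, 1 each for EZH2, EZH1, SUZ12, AEBP2, MTF2 and PHF19. The other 9, which are all windows of EED, RBBP4, RBBP7 and JARID2 and 1 window each of EZH2 and PHF19, held none. Among all 35116 windows of the table, 1164 (3.31%) held a match. The members' windows were rich in CpG, with a median of 40 CpG dinucleotides (16 to 54) and a median GC content of 73.0% (52.3% to 79.7%), beside medians of 14 and 58.7% over all windows. Each searched motif itself holds a CpG, so the share over all windows is not a like-for-like rate for the members' windows. A match is a stretch of letters, and binding was not measured.

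The histone-binding partners were by far the most abundant transcripts. RBBP4 had a median of 72.07 FPKM over the 8 libraries and RBBP7 one of 64.64 FPKM, and their ranges overlapped. Below a gap followed PHF19 at a median of 24.44 FPKM, MTF2 at 21.06, EZH2 at 18.29, EED at 17.97 and SUZ12 at 14.6 FPKM. Neighbours in that order overlapped across libraries. The lowest were AEBP2 at 6.118 FPKM, EZH1 at 4.524 FPKM and JARID2 at 4.035 FPKM, again with overlapping ranges. EZH2 thus made up 77.0% to 85.5% of the summed EZH1 and EZH2 level in every library. Between libraries the members differed widely in spread: the highest value was 2.49 times the lowest for AEBP2 and 2.18 times for EZH2, but 1.17 times for EED and 1.22 times for RBBP7.

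**Figure D1:**
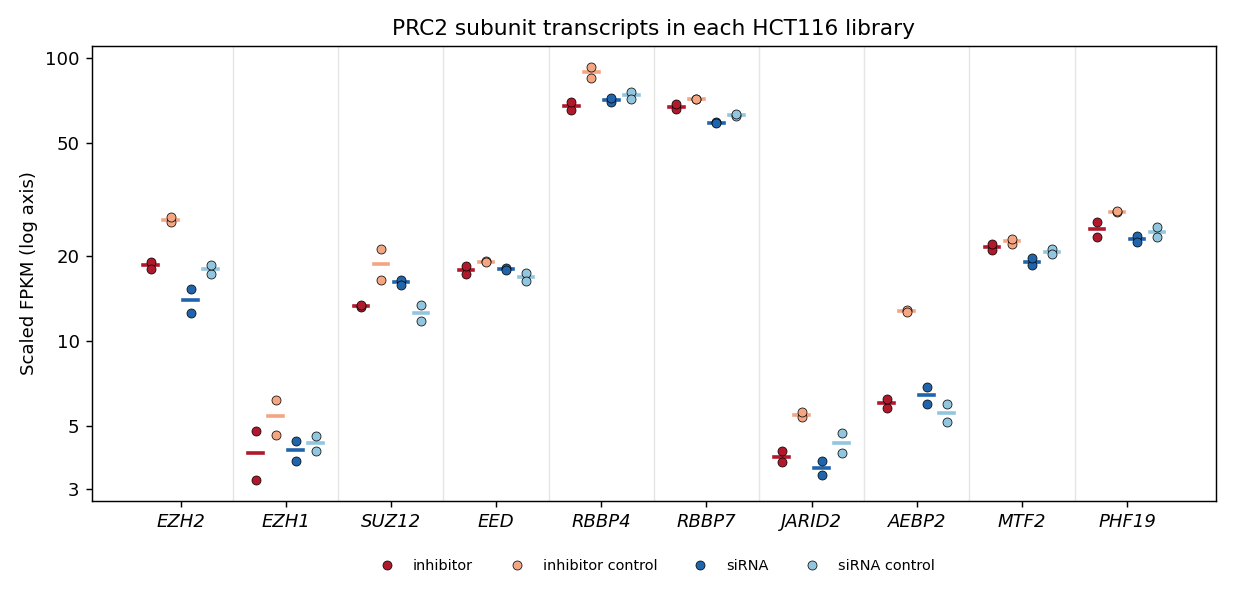
Scaled FPKM (log axis) of the 10 PRC2 genes in each of the 8 libraries, as points, with the mean of each group as a bar. RBBP4 and RBBP7 lie above 58 FPKM in every library, and AEBP2 lies near 12.7 FPKM in both inhibitor controls and below 7 FPKM in the other 6 libraries.

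With the inhibitor, transcripts of 5 of the 10 subunits fell relative to the inhibitor controls and none rose (limma, Benjamini-Hochberg adjusted p under 0.05). AEBP2 fell the most, to 0.472 of its mean control level, followed by EZH2, SUZ12, JARID2 and RBBP4. EED, RBBP7, MTF2, EZH1 and PHF19 did not pass the test. All 10 estimates were negative, with a median log2 difference of -0.38, beside 0.009 over all genes tested. This comparison called 36.5% of all genes, 17.7% higher and 18.7% lower, so calls were frequent. Libraries of the groups did not overlap for 9 members, all lower with the inhibitor, as for 71.5% of all genes in either direction and 35.2% in the lower one. In bulk RNA, fewer cells of a type and less RNA per cell cannot be told apart.

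EZH2, the main methyltransferase (hg19 chromosome 7, 148504475 to 148581413), had 19.04 and 17.95 FPKM in the inhibitor libraries, against 26.28 and 27.38 FPKM in the inhibitor controls. Both inhibitor libraries lay below both controls. The log2 difference was -0.51 ± 0.09 (SE, limma adjusted p = 0.00286), and it was called in all 17 alternative settings, at adjusted p between 0.00131 and 0.0308. EZH1, the less active paralog (chromosome 17, 40852293 to 40897071), had 3.224 and 4.806 FPKM with the inhibitor and 4.661 and 6.182 FPKM in the controls. Here the groups overlapped, and the log2 difference of -0.36 ± 0.17 was not called (limma adjusted p = 0.131, 95% interval -0.75 to 0.03). It depended on single libraries. It was -0.13 without inhibitor replicate 1 and -0.20 without inhibitor control replicate 2, but -0.54 without inhibitor control replicate 1 and -0.59 without inhibitor replicate 2, where the limma adjusted p was just below 0.05 (0.045 to 0.63 over 17 alternatives). EZH1 was the least precisely measured member, with Cufflinks bounds that lay 26.5% to 106% of its value away per run, against 6.17% to 16.8% for EZH2.

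SUZ12, the scaffold (chromosome 17, 30264037 to 30328064), had 13.2 and 13.36 FPKM with the inhibitor, against 16.37 and 21.22 FPKM in the inhibitor controls. The groups did not overlap, but the controls lay far apart from each other. It fell by 0.46 on the log2 scale (SE 0.11, limma adjusted p = 0.0124). Without inhibitor control replicate 2 the difference was -0.29 (adjusted p = 0.069), and without inhibitor replicate 1 or 2 the adjusted p was 0.0603 or 0.0596, within a range of 0.00382 to 0.0929 over 17 alternatives. SUZ12 has a near copy, the pseudogene SUZ12P, listed at 7.39 to 11.4 FPKM, so the split of fragments between them is uncertain. SUZ12P itself had a log2 difference of 0.27 ± 0.11 (limma adjusted p = 0.0786), in the opposite direction. EED, the reader of the mark (chromosome 11, 85955586 to 85989855), had 17.31 and 18.39 FPKM with the inhibitor and 19.12 and 19.07 FPKM in the controls. These lay apart by little, at -0.09 ± 0.07 (limma adjusted p = 0.31, 95% interval -0.24 to 0.06).

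RBBP4, a histone-binding partner (chromosome 1, 33116743 to 33151812), had 65.53 and 69.99 FPKM with the inhibitor, against 93.43 and 85.44 FPKM in the inhibitor controls. Both inhibitor libraries were lower, and the fall of 0.39 on the log2 scale (SE 0.06, limma adjusted p = 0.00154) was called in all 17 alternatives, at adjusted p between 0.000859 and 0.0186. Its close relative RBBP7 (chromosome X, 16857406 to 16888537) had 66.0 and 68.88 FPKM with the inhibitor and 71.82 and 71.69 FPKM in the controls. That difference of -0.09 ± 0.05 was not called (limma adjusted p = 0.186, 95% interval -0.2 to 0.02). Both loci overlap another gene, SYNC for RBBP4 at up to 6.17 FPKM and TXLNG for RBBP7 at up to 13.1 FPKM. SYNC also fell (log2 -0.28 ± 0.10, limma adjusted p = 0.0458).

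AEBP2, a zinc finger accessory subunit (chromosome 12, 19556979 to 19873735), had 5.802 and 6.227 FPKM with the inhibitor, against 12.83 and 12.62 FPKM in the inhibitor controls. The 2 groups were far apart and each was tight, with means of 6.01 ± 0.3 FPKM and 12.7 ± 0.149 FPKM (SD, n = 2). The log2 difference was -0.97 ± 0.10 (SE, limma adjusted p = 0.000222), called in all 17 alternatives, at adjusted p between 4.83e-05 and 0.00576. Its locus holds 2 further expressed entries, at up to 3.95 and 2.6 FPKM, and how fragments were split between them is uncertain. JARID2, the other subunit of that form (chromosome 6, 15246527 to 15522252), had 4.067 and 3.737 FPKM with the inhibitor, against 5.387 and 5.59 FPKM in the controls. It fell by 0.41 (SE 0.11, limma adjusted p = 0.0197), a call lost when any of the 4 libraries compared was left out (adjusted p 0.0548 to 0.119, within 0.0171 to 0.119 over 17 alternatives). The Polycomb-like subunits differed by less than these: MTF2 (chromosome 1, 93544792 to 93604638) had 21.01 and 21.97 FPKM with the inhibitor and 22.0 and 23.0 FPKM in the controls, at -0.06 ± 0.07 (limma adjusted p = 0.486, 95% interval -0.21 to 0.08). PHF19 (chromosome 9, 123617977 to 123639606) had 26.3 and 23.37 FPKM with the inhibitor, against 28.53 and 28.81 FPKM in the controls. Its difference of -0.20 ± 0.07 missed the threshold (limma adjusted p = 0.0625), and passed it without inhibitor replicate 1 (-0.28, adjusted p = 0.0478, the lowest over 17 alternatives). Without inhibitor replicate 2 it was -0.12 (limma adjusted p = 0.36, the highest).

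The inhibitor libraries were next set beside the siRNA controls. Here 0 of the 10 subunits were called (limma), in a comparison that called 0.0389% of all genes. An unadjusted p under 0.05 was reached by 0 of the 10, and by 1599 of the 12846 genes tested. The median log2 difference was 0.05, beside -0.006 over all genes. Estimates ran from -0.13 for RBBP4 and JARID2 to 0.10 for RBBP7 and AEBP2, at adjusted p between 0.433 and 0.903. For EZH2 the difference was 0.04 with a 95% interval of -0.17 to 0.25, and for AEBP2 0.10 with an interval of -0.13 to 0.32. The AEBP2 value was 0.00 with replicate 2 of those controls left out and 0.19 with replicate 1 left out. The libraries lay apart for 2 members, RBBP4 and RBBP7, as for 45.9% of all genes. The labels do not say how the siRNA controls were treated, and any difference in handling between these groups cannot be told apart from the drug.

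The control groups were then compared with each other. This and the first comparison share the inhibitor controls, so they are not independent. Here 6 members were lower in the siRNA controls and none was higher (limma), with 38.3% of all genes called, 19.2% higher and 19% lower. AEBP2 had 6.001 and 5.152 FPKM in the siRNA controls, against 12.83 and 12.62 FPKM in the inhibitor controls (log2 -1.06 ± 0.10, limma adjusted p = 0.000123). EZH2 differed by -0.55 ± 0.09 (adjusted p = 0.00184), SUZ12 by -0.54 ± 0.11 (adjusted p = 0.0058) and RBBP4 by -0.27 ± 0.06 (adjusted p = 0.009). RBBP7 at -0.19 ± 0.05 (limma adjusted p = 0.0144) and PHF19 at -0.23 ± 0.07 (limma adjusted p = 0.0374) were called as well. The median was -0.26, beside 0.006 over all genes, and all 10 members had both siRNA controls below both inhibitor controls, an arrangement 34.4% of all genes showed, with 69.6% apart in either direction. Without inhibitor control replicate 1 only EZH2, SUZ12 and AEBP2 were called. RBBP4 was also lost without siRNA control replicate 2, RBBP7 without inhibitor control replicate 2 or siRNA control replicate 1, and PHF19 without either of the same libraries. The summed FPKM of the epithelial markers, nearly all of it from KRT8, KRT18 and EPCAM, was 448 to 462 in inhibitor, 389 to 395 in siRNA, 402 to 404 in siRNA control and 543 to 545 in inhibitor control libraries, and its part in the result was not tested.

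**Figure D2:**
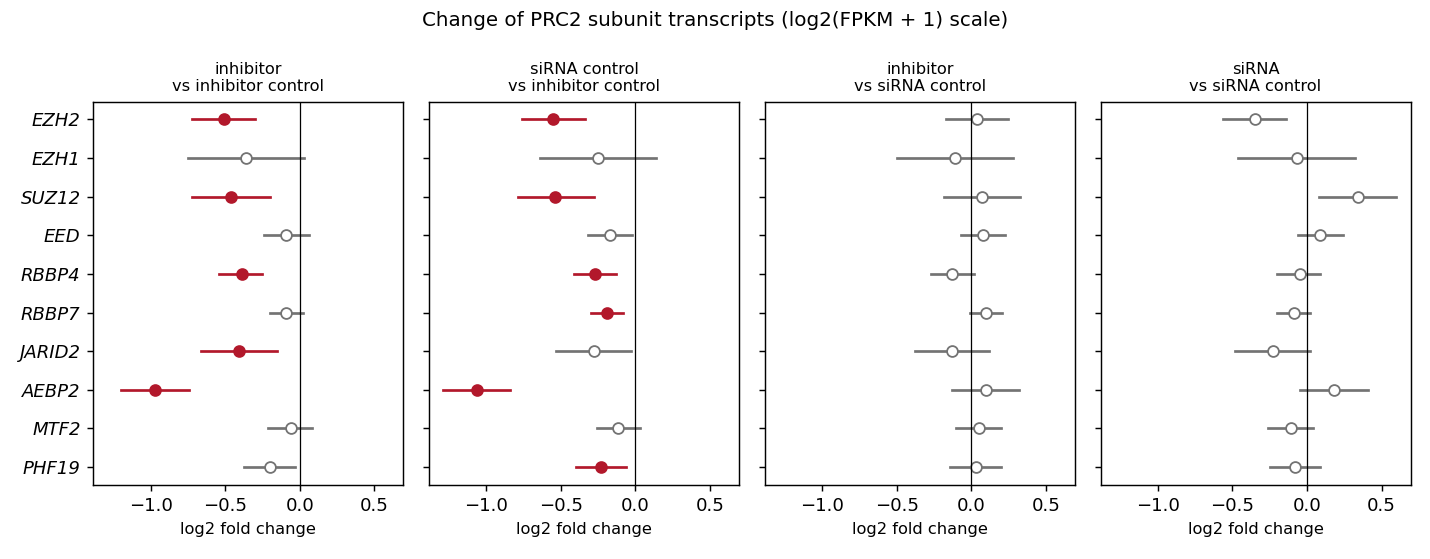
Log2 fold change of each PRC2 gene on the log2(FPKM + 1) scale, with its 95% interval from limma, in 4 comparisons. Filled red points passed an adjusted p of 0.05: 5 of 10 for the inhibitor against its controls and 6 of 10 for the siRNA controls against the inhibitor controls, and none in the comparisons with the siRNA controls as the baseline.

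With the siRNA, which lowered the G9a transcript itself, none of the 10 subunits passed the test against the siRNA controls (limma). An unadjusted p under 0.05 was reached by 2 of the 10, and by 2670 of the 12846 genes tested, a similar share. The comparison called 2.13% of all genes. That background varied, at 273 genes with all libraries and between 8 and 424 with 1 library left out, the lowest without siRNA control replicate 2 and the highest without siRNA control replicate 1. The siRNA controls are the same libraries that the inhibitor was set against in the second comparison. EZH2 came nearest. It had 12.56 and 15.31 FPKM with the siRNA, against 17.28 and 18.63 FPKM in the siRNA controls. Both siRNA libraries lay below both controls, and the means were 13.9 ± 1.95 FPKM and 18.0 ± 0.958 FPKM (SD, n = 2). The log2 difference of -0.35 ± 0.09 had a 95% interval of -0.56 to -0.14 and an adjusted p of 0.0828 (limma, unadjusted 0.00443). It stayed negative in 17 of 17 alternatives, between -0.48 and -0.21 (the value nearest 0 without siRNA replicate 1), and was called in none, at adjusted p between 0.0698 and 0.38.

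SUZ12 lay in the other direction, with 16.49 and 15.81 FPKM in the siRNA libraries, against 13.38 and 11.78 FPKM in the siRNA controls. Both siRNA libraries were higher, and the difference of 0.34 ± 0.11 had a 95% interval of 0.08 to 0.60 (limma adjusted p = 0.139, unadjusted 0.015). It was called in 0 of 17 alternatives, at adjusted p between 0.0783 and 0.538. SUZ12P differed by 0.11 ± 0.11 (limma adjusted p = 0.601). AEBP2, at 6.009 and 6.889 FPKM with the siRNA and 6.001 and 5.152 FPKM in the controls, differed by 0.18 ± 0.10 (limma adjusted p = 0.352). That value was 0.10 without siRNA replicate 2 and 0.09 without siRNA control replicate 2, but 0.27 without siRNA replicate 1 and 0.28 without siRNA control replicate 1. JARID2 had 3.358 and 3.759 FPKM with the siRNA and 4.003 and 4.722 FPKM in the controls, at -0.23 ± 0.11 (limma adjusted p = 0.275, 95% interval -0.48 to 0.02), and -0.14 without siRNA control replicate 2. Neither accessory gene passed the test. The other 6 members lay between -0.11 for MTF2 and 0.09 for EED, at adjusted p of 0.356 or more. In all, 7 estimates were negative, the median was -0.07, beside -0.01 over all genes, and libraries lay apart for 7 members, as for 49.7% of all genes.

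A test of the difference between the treatment effects, the inhibitor against its controls minus the siRNA against its controls, called 3 members, all with the lower value for the inhibitor (limma, 11.8% of all genes called, 5.16% higher and 6.67% lower). They were AEBP2 at -1.15 ± 0.14 (adjusted p = 0.00272), SUZ12 at -0.80 ± 0.16 (adjusted p = 0.0161) and RBBP4 at -0.34 ± 0.09 (adjusted p = 0.0392). AEBP2 was called in 16 of 16 alternatives, SUZ12 in 12 and RBBP4 in 4. SUZ12 lost the call without inhibitor replicate 1 (adjusted p = 0.0587) or 2 (adjusted p = 0.0606), within 0.00684 to 0.124 over its alternatives. RBBP4 lost it without any 1 library except inhibitor control replicate 2 (adjusted p between 0.0207 and 0.334 over its alternatives). For EZH2 the difference of effects was -0.16 ± 0.13 (limma adjusted p = 0.458), with a 95% interval of -0.46 to 0.13, so a different response of EZH2 was not shown. The whole test includes the inhibitor controls.

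Ratios between subunits within a library do not depend on scaling. EZH2 over SUZ12 was 0.761 and 0.968 with the siRNA, against 1.29 and 1.58 in the siRNA controls. The siRNA libraries were the lowest of all 8, since the inhibitor libraries had 1.44 and 1.34 and the inhibitor controls 1.61 and 1.29. The ratio of the Polycomb-like subunits to the other accessory form, MTF2 plus PHF19 over JARID2 plus AEBP2, averaged 4.67 ± 0.173 with the inhibitor, against 2.81 ± 0.0507 in its controls, and 4.22 ± 0.385 with the siRNA, against 4.53 ± 0.128 in the siRNA controls (SD, n = 2 each). The inhibitor controls alone lay below 3. RBBP4 over RBBP7 was 0.993 and 1.02 with the inhibitor, the lowest of the 8 libraries, and averaged 1.25 ± 0.0772 in the inhibitor controls, 1.2 ± 0.0368 with the siRNA and 1.18 ± 0.0601 in the siRNA controls. EZH2 over EZH1 averaged 4.82 ± 1.54 with the inhibitor and 5.03 ± 0.856 in its controls, and 3.39 ± 0.0737 with the siRNA and 4.13 ± 0.118 in the siRNA controls. The ratios are given as values, and differences between them were not tested.

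**Figure D3:**
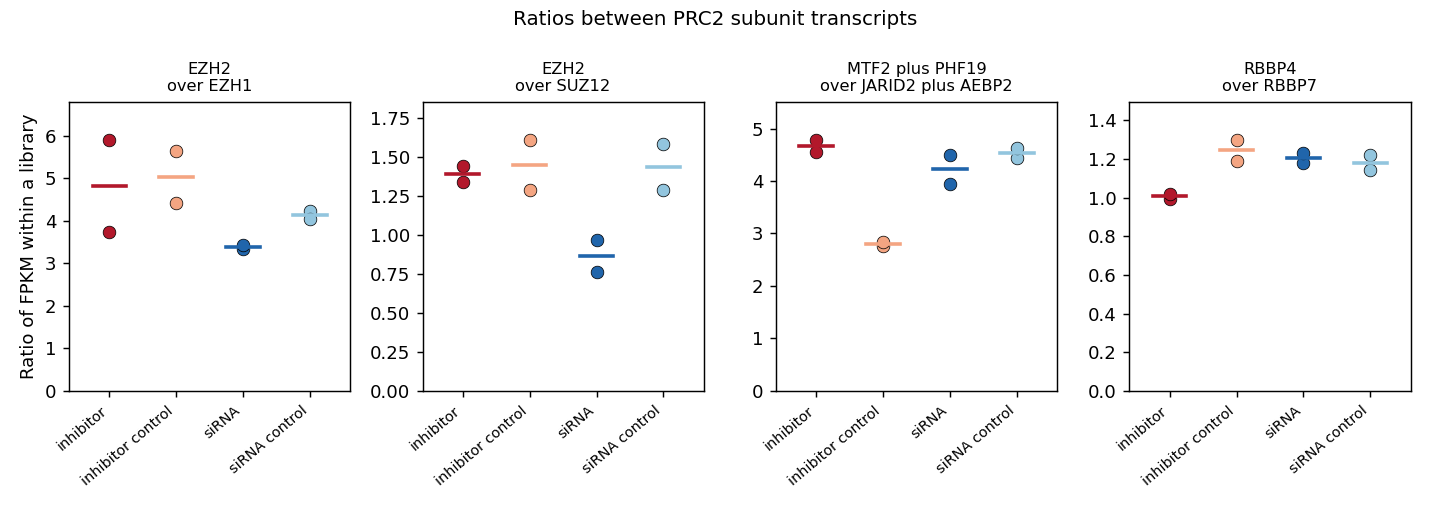
Ratio of scaled FPKM between PRC2 genes within each library (points) and the mean of each group (bars), on axes that start at 0. EZH2 over SUZ12 is below 1 in both siRNA libraries only, and MTF2 plus PHF19 over JARID2 plus AEBP2 is lowest in the inhibitor controls.

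Genes that work beside PRC2 were described from lists of textbook members. Over all genes tested, beside which these lists are read, the median was 0.009 with the inhibitor (36.5% called) and -0.01 with the siRNA (2.13% called). With the siRNA, 2670 of the 12846 genes tested had an unadjusted p under 0.05 (limma), beside which such counts in the lists are read. Rises and falls with the inhibitor are relative to the inhibitor controls, which stood apart from the other libraries. Of 6 further entries for accessory subunits 5 were tested, and with the inhibitor 1 rose and 2 fell relative to the inhibitor controls (median log2 -0.18). LCORL, the gene of one PRC2-binding protein, rose (11.22 and 11.79 FPKM, against 7.655 and 7.593 FPKM in the controls, log2 0.54 ± 0.09, limma adjusted p = 0.00248), while its paralog LCOR fell (9.827 and 10.68 FPKM, against 13.5 and 15.6 FPKM, log2 -0.46 ± 0.09, adjusted p = 0.0045). C10orf12, counted as its own entry beside LCOR, fell too (log2 -0.44 ± 0.12, limma adjusted p = 0.0187). Whether the LCOR and C10orf12 entries belong to separate genes was not examined. LCORL overlaps the abundant gene NCAPG. None of the 5 was called with the siRNA (median -0.04, limma, 1 at an unadjusted p under 0.05), where C17orf96 had 11.19 and 11.79 FPKM, against 12.93 and 13.52 FPKM in the controls (log2 -0.19, adjusted p = 0.179).

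PRC1, the partner complex that ubiquitinates histone H2A, had all 23 listed subunits tested. With the inhibitor 3 rose and 6 fell (median -0.16). RYBP, a subunit of variant complexes, had 1.842 and 1.812 FPKM with the inhibitor, against 4.012 and 4.582 FPKM in the inhibitor controls (log2 -0.90 ± 0.12, limma adjusted p = 0.000745). PCGF6, another variant subunit, rose (23.6 and 24.94 FPKM, against 16.96 and 17.49 FPKM, log2 0.47 ± 0.07, adjusted p = 0.000832), as did BMI1, of the canonical complex (log2 0.55 ± 0.09, adjusted p = 0.0016), whose locus overlaps the read-through entry COMMD3-BMI1. CBX8, which reads the H3K27 mark, had 9.378 and 8.91 FPKM with the siRNA, against 7.362 and 7.813 FPKM in the siRNA controls, a difference of 0.24 ± 0.09 that was not called (limma adjusted p = 0.164). No PRC1 gene passed the test with the siRNA (median 0.002, limma, 2 at an unadjusted p under 0.05).

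Of the enzymes that remove Polycomb marks and their partners, 4 of 5 were tested. With the inhibitor ASXL1, a partner of the deubiquitinase BAP1, fell (11.24 and 10.6 FPKM, against 15.8 and 17.08 FPKM in the inhibitor controls, log2 -0.55 ± 0.10, limma adjusted p = 0.0031), as did its paralog ASXL2 (log2 -0.73 ± 0.21, adjusted p = 0.0226). BAP1 itself (log2 -0.16, limma adjusted p = 0.128) and the H3K27 demethylase KDM6A (log2 -0.22, adjusted p = 0.146) did not pass. None was called with the siRNA (median -0.13, limma, 0 at an unadjusted p under 0.05).

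Other complexes that use RBBP4 or RBBP7 had 19 of 20 genes tested, of which 2 rose and 9 fell with the inhibitor (median -0.27). CHD3, a remodeller of the NuRD complex, had 9.55 and 9.194 FPKM with the inhibitor, against 18.47 and 17.02 FPKM in the inhibitor controls (log2 -0.85 ± 0.10, limma adjusted p = 0.000331). SIN3A, the scaffold of the Sin3 complex, fell by 0.76 (SE 0.10, limma adjusted p = 0.000504). With the siRNA 2 genes of this list fell. CHAF1A, the large subunit of chromatin assembly factor CAF-1, had 12.75 and 13.6 FPKM with the siRNA, against 18.43 and 22.55 FPKM in the siRNA controls (log2 -0.59 ± 0.09, limma adjusted p = 0.0253). GATAD2A, of NuRD, had 14.32 and 19.27 FPKM, against 26.67 and 26.41 FPKM (log2 -0.64 ± 0.13, limma adjusted p = 0.044). Both were also lower with the inhibitor than in the inhibitor controls, CHAF1A at -0.65 ± 0.09 (limma adjusted p = 0.000813) and GATAD2A at -0.81 ± 0.13 (adjusted p = 0.00156). From the inhibitor to the siRNA controls, CHAF1A differed by -0.46 and GATAD2A by -0.57. In the inhibitor libraries against the siRNA controls, the values were -0.2 and -0.24 (limma adjusted p = 0.416 and 0.477). CHAF1A overlaps UBXN6 and CHD3 overlaps LSMD1, so these values are uncertain.

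Genes described as PRC2 targets in cancer cells were often below the filter on low values, which 7 of 15 passed. With the inhibitor 2 rose and 3 fell (median -0.01). RUNX3, a transcription factor, had 1.62 and 1.419 FPKM with the inhibitor, against 2.935 and 3.156 FPKM in the inhibitor controls (log2 -0.68 ± 0.13, limma adjusted p = 0.00394). VASH1, an inhibitor of vessel growth, fell by 0.54 (SE 0.15, limma adjusted p = 0.0226), and CDKN2A, which encodes cell cycle inhibitors, rose (28.57 and 30.45 FPKM, against 22.13 and 25.89 FPKM, log2 0.29 ± 0.09, adjusted p = 0.0276). VASH1 overlaps the entry RP11-488C13.5, listed at 2.46 to 3.51 FPKM, so its value is uncertain. With the siRNA none passed (median -0.09, limma, 1 at an unadjusted p under 0.05), and CDKN2A had 27.28 and 24.31 FPKM, against 30.54 and 31.06 FPKM in the siRNA controls (log2 -0.25, adjusted p = 0.15).

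The proliferation list held calls in both directions, with 5 of 15 genes higher and 4 lower with the inhibitor (median 0.02). RRM2, a subunit of ribonucleotide reductase, had 54.47 and 57.08 FPKM with the inhibitor, against 119.9 and 121.1 FPKM in the inhibitor controls (log2 -1.10 ± 0.06, limma adjusted p = 1.05e-05). MCM6, of the replicative helicase, fell by 1.08 (SE 0.07, limma adjusted p = 2.67e-05), whereas the mitotic kinase CDK1 rose (137.3 and 137.9 FPKM, against 89.9 and 89.73 FPKM, log2 0.61 ± 0.06, adjusted p = 0.0002). With the siRNA RRM2 alone was called in this list (42.5 and 42.08 FPKM, against 52.81 and 58.96 FPKM in the siRNA controls, log2 -0.39 ± 0.06, limma adjusted p = 0.0266), and cyclin A2 (CCNA2) was next at 0.27 ± 0.06 (adjusted p = 0.0532). CCNA2 overlaps the gene EXOSC9, listed at 30.6 to 40.5 FPKM. No gene of any of these lists was called in the inhibitor libraries against the siRNA controls, where 0.0389% of all genes were called (limma). For the gene of lowest p with the inhibitor in each list, the control groups also differed. From the inhibitor to the siRNA controls, log2 differences were 0.41 for LCORL, -1.02 for RYBP and -0.52 for ASXL1. They were -1.01 for CHD3, -0.63 for RUNX3 and -1.1 for RRM2. In the inhibitor libraries against the siRNA controls, the values were 0.12, 0.11, -0.03, 0.16, -0.05 and -0.0, in that order.

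**Figure D4:**
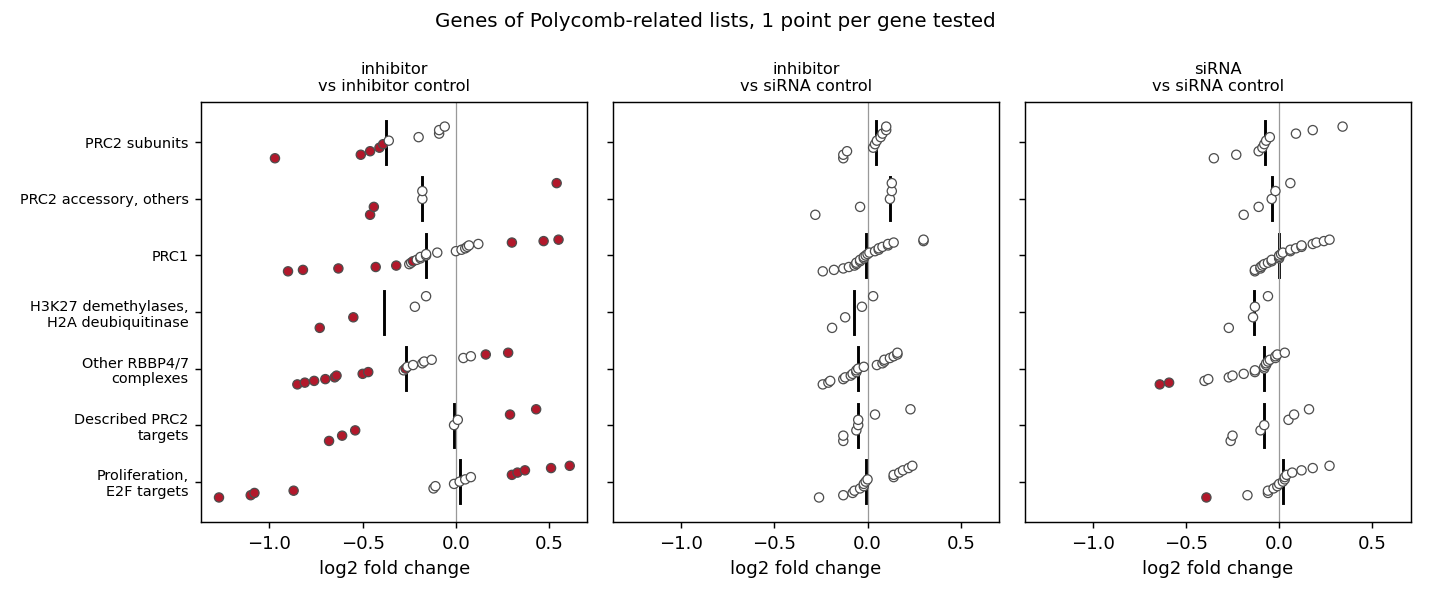
Log2 fold change of each tested gene (1 point per gene, filled red where the limma adjusted p was under 0.05) in the PRC2 list and 6 lists beside it, with the list median as a black line, in 3 comparisons. Called genes are many for the inhibitor against its controls (36.5% of all genes called) and 3 for the siRNA against its controls (2.13%). They are 0 for the inhibitor against the siRNA controls (0.0389%).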

How the data were processed

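The labels' protocols name a stranded kit for total RNA from HCT116 cells. The authors deposited FPKM per gene with confidence bounds, made with Cufflinks, per the file headers. The submitters' processing notes also name STAR 2.3.0e, SAMtools 0.1.19 and build hg19. The sources used here give neither the Cufflinks version and options nor the annotation or any use of strand, so overlapping, antisense and copied genes are uncertain. Of 63784 entries, 131 repeated a gene and were summed into 63653 genes. MT-RNR2, marked unreliable in every run, was left out.

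The 2 runs of each library were averaged on the FPKM scale. The filter kept 12846 genes whose FPKM averaged at least 1 and whose locus spans 300 bases or more. Median-of-ratios scaling used factors between 0.878 and 1.091. Groups were compared on log2(FPKM + 1), which understates changes of low genes, with limma 3.58.1 in R 4.3.3 (mean-variance trend, all 4 groups in 1 fit, 4 residual and 5.04 prior degrees of freedom, two-sided). A gene was called at a Benjamini-Hochberg adjusted p under 0.05 over all genes tested. The procedure was run on simulated data with 200 changed genes and independent noise. That setting differs from the inhibitor comparison, which called 36.5% of all genes, so no error rate is taken from it. The files hold no counts, and relative depth was estimated from the Cufflinks bounds of 11025 genes.

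The members and gene lists were chosen with earlier results of these data known. In each list the text names up to 3 genes with the lowest p for the inhibitor and up to 2 for the siRNA, whether called or not. Separate cultures are not stated in the labels. The p-values therefore measure the spread between libraries alone, which may be technical. Promoters are RefSeq's, in GRCh38.p14, and their coordinates are not those of the files' build.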

Additional observations from a re-analysis of the deposited data

Results flagged for a closer look

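For 3 members a result met the criterion that the response differed between the treatments by a test of the difference itself (limma). That test called 11.8% of all genes tested. AEBP2 kept the call in every alternative setting, whereas SUZ12 lost it in some and RBBP4 in most. The effect of the inhibitor minus the effect of the siRNA was -1.15 on the log2 scale for AEBP2, -0.80 for SUZ12 and -0.34 for RBBP4. AEBP2 differed by -0.97 with the inhibitor and by 0.18 with the siRNA, SUZ12 by -0.46 and 0.34, and RBBP4 by -0.39 and -0.05, each against its own controls. The inhibitor controls, which stood apart from the other 6 libraries, enter each of these values. Between the siRNA controls and the inhibitor controls, AEBP2 differed by -1.06, SUZ12 by -0.54 and RBBP4 by -0.27.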

How the results depend on the processing

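Alternatives covered the 10 members, their ratios and the counts over all genes, not the listed genes. Most member values had no call to lose, with 5 called for the inhibitor, 6 between the control groups and 3 for the difference of effects. Of 840 member values, 773 kept direction and side of the threshold, 42 lost the call, 4 gained it and 21 changed sign. Members called for the inhibitor against its controls numbered 3 without the filter on low values, and 3 to 5 when a library was left out. For the siRNA controls against the inhibitor controls they numbered 3 with the first run only, and 3 to 6 when a library was left out. For the difference of effects they numbered 1 without the filter and 1 with the second run only, and 1 to 3 when a library was left out. With a library left out, counts with the siRNA and for the inhibitor against the siRNA controls stayed at 0 to 0. A lone library is assumed to vary like the other groups. For the inhibitor and the difference of effects, shares of genes called fell without a compared library or the filter (9.25% and 0.738% of 32405).

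None of the values that changed sign was called. They were, with the first run only, EZH1 (0.05) and MTF2 (0.01) with the siRNA, EZH1 (0.10), EED (-0.03) and PHF19 (-0.04) for the inhibitor against the siRNA controls, and RBBP7 (0.09) and MTF2 (-0.01) for the difference of effects. With the second run only they were EED (0.03) for the inhibitor against its controls, and AEBP2 (-0.02) and MTF2 (-0.01) against the siRNA controls. With a library left out, the range spanned 0 for EZH1 with the siRNA (-0.16 to 0.03), for EZH2 (-0.01 to 0.09), EZH1 (-0.34 to 0.12), SUZ12 (-0.01 to 0.16) and PHF19 (-0.05 to 0.11) for the inhibitor against the siRNA controls, and for RBBP7 (-0.03 to 0.03) for the difference of effects. RBBP7 also changed there with FPKM as deposited (0.04) and without the filter (0.01). The cause was not tested.

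Ratios by run were 3.66 and 3.24 (first and second run only) for EZH2 over EZH1 with the siRNA and 5.3 and 3.63 in the siRNA controls, 2.87 (first run) for the accessory ratio in the inhibitor controls, and 0.98 and 1.03 for RBBP4 over RBBP7 with the inhibitor.

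No label says what a replicate number marks, so replicate numbers were not taken to pair samples. Same-numbered libraries also did not deviate together (r between -0.10 and 0.05 over genes). With the replicate block, 6 members were called for the inhibitor (limma, 34.1% of all genes called) and 0 for the siRNA (0.529%). Between the controls 5 were called (35.6%), for the inhibitor against the siRNA controls 0 (0.0389%), and for the difference of effects 2 (9.13%). EZH1 was then called for the inhibitor (adjusted p = 0.045), and calls were lost for PHF19 between the controls (0.0544) and for RBBP4 in the difference of effects (0.062).

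Over all genes, calls for the siRNA numbered 273, but 8 without siRNA control replicate 2, 424 without siRNA control replicate 1, 5 without the filter, 24 with only the groups compared and 134 (20 higher, 114 lower, beside 103 and 170) with FPKM as deposited. For the inhibitor, 4686 calls (2278 higher, 2408 lower) became 3112 (1083 higher, 2029 lower) with FPKM as deposited, 2996 without the filter, 2668 without inhibitor replicate 2, 3117 with the first run only, and 2733 higher and 2075 lower with quantile normalization. For the siRNA controls against the inhibitor controls, 4916 calls (2472 higher, 2444 lower) became 648 higher and 2950 lower with FPKM as deposited, 2739 higher and 2166 lower with quantile normalization, 3175 without the filter and 3212 with the first run only. For the difference of effects 1520 calls became 239 to 1616, and for the inhibitor against the siRNA controls 5 became 0 to 44. From inhibitor to siRNA controls, the median over all genes was -0.11 with FPKM as deposited, beside 0.01 with scaling. The Cufflinks bounds were widest for EZH1, where they correspond to between 4 and 57 fragments per run if they held counting error only, against 142 to 1050 for EZH2. What widened them was not tested.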

Other observations

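The genes most like a PRC2 core gene across the 8 libraries were sought among 8311 genes with a mean of at least 5 FPKM, by Pearson r on log2(FPKM + 1), as a description without a test. The libraries fall into groups and differ in depth, and the inhibitor controls stand apart. For EZH2 the nearest were PDE12 (0.994), MAP4K4 (0.991) and FAM171A1 (0.991), and 897 genes reached 0.9. For SUZ12 they were LANCL1 (0.977), CNPPD1 (0.966) and DEF6 (0.957), and 29 genes reached 0.9. For EED they were RAB21 (0.991), ZBTB38 (0.970) and LEMD2 (0.959), and 23 genes reached 0.9.

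Between the control groups, entries inside the AEBP2 locus differed in the direction opposite to AEBP2. RP11-841C19.3 had 2.111 and 3.946 FPKM in the siRNA controls, against 0.6366 and 0.853 FPKM in the inhibitor controls (log2 1.17 ± 0.21, limma adjusted p = 0.00259). The pseudogene EEF1A1P4 had 1.92 and 2.601 FPKM, against 0.8628 and 1.107 FPKM (log2 0.71 ± 0.15, limma adjusted p = 0.00666). With the inhibitor their differences were 0.44 ± 0.21 (limma adjusted p = 0.132) and 0.22 ± 0.15 (adjusted p = 0.303). The sources used here do not say how Cufflinks divided fragments between AEBP2 and these entries.

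EHMT1, the partner of G9a, had 10.88 and 12.44 FPKM with the inhibitor, against 25.5 and 24.03 FPKM in the inhibitor controls (log2 -1.03 ± 0.12, limma adjusted p = 0.000353). Its difference between inhibitor libraries and siRNA controls was -0.24 ± 0.12 (limma adjusted p = 0.446).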
